A study of Mus musculus with 7 samples.

Results

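The miR-29 family is represented by 7 mature arms among the 1914 mouse miRNA rows of each library. They are the 3p arms mmu-miR-29a-3p, mmu-miR-29b-3p and mmu-miR-29c-3p and the 5p arms mmu-miR-29a-5p, mmu-miR-29b-1-5p, mmu-miR-29b-2-5p and mmu-miR-29c-5p, taken by name and written below without the species prefix. The tissue was lateral ventricles with choroid plexus from C57BL/6J adults, and small RNA was sequenced in 4 TAp73 knockout and 3 wild type libraries. TAp73 is the p73 isoform with a transactivation domain, and per the title of the series the comparison concerns how brain cells with many motile cilia form. Strain, tissue and the adult stage are common to both groups, and the labels give neither an exact age nor the design of the knockout allele. They do not state that each library is a separate mouse, so the spread behind each p-value is that between libraries, which may be technical.

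miR-29 miRNAs repress messages for collagens and other extracellular matrix proteins and for enzymes that set and remove DNA methylation. In the mouse brain they rise strongly as neurons mature, where they repress pro-apoptotic genes of the BH3-only class, and they are also found in astrocytes. A hairpin is cut into a duplex from which 1 strand is usually kept in Argonaute, and for miR-29 that is the 3p strand. Targets are recognised mainly through the seed, bases 2 to 8 of the mature strand. All libraries here come from adults, so the change with age was not measured.

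The mature sequences show how closely the rows resemble each other, and are given 5′ to 3′ with the seed in capitals (RefSeq, build GRCm38.p6, where all 7 arms were matched by name).
miR-29a-3p: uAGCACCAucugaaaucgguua
miR-29c-3p: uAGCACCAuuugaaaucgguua
miR-29b-3p: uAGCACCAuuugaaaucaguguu
miR-29a-5p: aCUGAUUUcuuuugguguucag
miR-29c-5p: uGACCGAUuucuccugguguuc
miR-29b-1-5p: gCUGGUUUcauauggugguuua
miR-29b-2-5p: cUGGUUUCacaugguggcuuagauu

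The 3 3p arms share the seed AGCACCA, and 0 of the other mature mouse miRNAs in the table have it. Counting from 1 at the 5′ end, miR-29a-3p and miR-29c-3p differ by a single substitution over 22 bases, C10U. miR-29b-3p and miR-29c-3p are identical over their first 17 bases. miR-29b-3p ends in AGUGUU, which is known from human cells as a signal for import into the nucleus, and no other member ends in it. The 4 5p arms have 4 distinct seeds. The tolerance for mismatches in the authors' counting is not given in the sources used here, so the split of reads between miR-29a-3p and miR-29c-3p is less certain than their sum.

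The arms come from 4 hairpins in a pair of clusters, shown here with both mature arms in capitals because the row of miR-29b-3p collects the same sequence from both clusters.
Mir29a: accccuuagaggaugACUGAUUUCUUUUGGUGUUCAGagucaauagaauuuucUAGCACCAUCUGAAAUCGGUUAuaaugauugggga
Mir29b-1: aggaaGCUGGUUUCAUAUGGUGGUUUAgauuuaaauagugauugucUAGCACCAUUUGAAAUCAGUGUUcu
Mir29b-2: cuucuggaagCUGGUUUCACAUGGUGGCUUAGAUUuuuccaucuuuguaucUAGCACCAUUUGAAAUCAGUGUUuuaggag
Mir29c: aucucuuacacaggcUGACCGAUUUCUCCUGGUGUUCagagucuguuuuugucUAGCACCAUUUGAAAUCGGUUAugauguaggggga

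Mir29a (chr6:31062660-31062747) and Mir29b-1 (chr6:31063023-31063093) lie on the minus strand, 275 bases apart. GENCODE M21 places no protein-coding gene over them, and Mir29b-1 overlaps the end of the long non-coding gene Gm27019 on the same strand. Mir29b-2 (chr1:195037040-195037120) and Mir29c (chr1:195037547-195037634) lie on the plus strand, 426 bases apart. Both fall in an exon of the non-coding host transcript A330023F24Rik, and on the opposite strand in an untranslated exon region of Cd46, which encodes a complement-regulating membrane protein. Only the 5p arms tell miR-29b-1 from miR-29b-2.

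Depth ran from 955057 to 9233235 mouse miRNA reads in the knockout libraries and from 2211619 to 3647102 in the wild types. Levels are counts per 1000000 of these reads (CPM). Knockout replicate 3 was the shallowest library, where 3 reads correspond to 3.14 CPM. The miRNA markers of the labelled tissue were present in each library. The summed level of the choroid plexus miRNAs miR-204-5p, miR-204-3p and miR-211-5p was 2016 to 7435 CPM in knockouts and 2015 to 11789 CPM in wild types, and that of 6 miR-34b, miR-34c and miR-449 arms, abundant in multiciliated cells, was 385 to 760.5 CPM in knockouts and 1291 to 3675 CPM in wild types. That sum joins opposite directions: the 4 miR-34 arms fell, with log2 fold changes from -2.56 to -2.40, while miR-449a-5p rose by 2.67 (edgeR adjusted p = 0.0048) and miR-449c-5p by 3.12 (edgeR adjusted p = 0.0018). Knockout replicate 3 and wild type replicate 2 were lowest in choroid plexus miRNAs within their groups. Because whole tissue was dissected, fewer cells of a type and less miRNA per cell cannot be told apart.

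The family made up 0.630% ± 0.066 of mouse miRNA reads over the 4 knockout libraries, against 0.691% ± 0.11 over the 3 wild types (mean ± SD, as in all such pairs below). Of its reads, 99.2% ± 0.25 in knockouts and 99.2% ± 0.26 in wild types came from the 3p arms. The summed family stood at 5900, 7276, 6089 and 5937 CPM in the 4 knockout libraries, against 7297, 7745 and 5683 CPM in the 3 wild types. All 4 knockouts lay within the range of the wild types, whose replicate 3 was the lowest library.

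miR-29a-3p was the main family member, averaging 5128 ± 581 CPM in knockouts against 5557 ± 949 CPM in wild types (SD, n = 4 and n = 3), and ranked 32 among all mouse miRNA rows by mean level. It stood at 4853, 5997, 4873 and 4788 CPM in knockouts, against 5766, 6384 and 4522 CPM in wild types. All 4 knockouts again lay within the wild type range, with knockout replicate 2 apart from the other 3 knockouts. The fold change, knockout over wild type, was 0.969 (95% interval 0.769 to 1.22), a log2 fold change of -0.04 ± 0.15 (SE, edgeR adjusted p = 0.91). Across the 7 libraries its coefficient of variation was 13.6%, beside a median of 13.6% over the 64 mouse miRNAs with a mean of at least 1000 CPM.

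miR-29c-3p, its single-base relative from chromosome 1, ranked 71. It stood at 801, 939.8, 832.4 and 855 CPM in knockouts, against 1054, 977 and 834 CPM in wild types. Wild type replicate 3 lay among the knockouts, and wild type replicates 1 and 2 lay above all of them. Its fold change was 0.944 (0.769 to 1.16), with a log2 fold change of -0.08 ± 0.13 (SE, edgeR adjusted p = 0.80).

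miR-29b-3p, the product of both clusters, had the fold change furthest from 1 among the 3p arms. It stood at 207, 285, 309 and 251 CPM in knockouts, against 403, 345 and 278 CPM in wild types. The groups overlapped only through knockout replicate 3 and knockout replicate 2, which lay above wild type replicate 3. The fold change was 0.805 (0.606 to 1.07), a log2 fold change of -0.31 ± 0.19 (SE, edgeR adjusted p = 0.53). It was -0.47 without wild type replicate 3 (edgeR adjusted p = 0.41) and -0.18 without wild type replicate 1 (edgeR adjusted p = 0.76), the extremes over omissions of a single library.

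The 5p arms, the strands that are mostly degraded after the hairpin is cut, lay at 36.6 CPM or below in each library. miR-29c-5p stood at 15.2, 22.2, 36.6 and 20.1 CPM in knockouts, against 30.4, 16.7 and 22.8 CPM in wild types. miR-29a-5p stood at 14.6, 21.0, 26.2 and 10.6 CPM in knockouts, against 29.7, 15.4 and 17.5 CPM in wild types. In both arms the highest knockout was replicate 3 and the highest wild type was replicate 1, and the groups overlapped throughout. The log2 fold change was -0.01 ± 0.30 for miR-29c-5p (SE, 95% interval -0.67 to 0.65, edgeR adjusted p = 0.98) and -0.20 ± 0.33 for miR-29a-5p (-0.93 to 0.52, adjusted p = 0.80).

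miR-29b-2-5p stood at 9.42, 8.32, 10.5 and 10.05 CPM in knockouts, against 11.1, 6.33 and 8.77 CPM in wild types. Its wild type values spanned the whole knockout range, and its log2 fold change was 0.17 ± 0.26 (SE, 95% interval -0.40 to 0.75, edgeR adjusted p = 0.79). miR-29b-1-5p was the rarest member, with 10, 21, 1 and 6 reads in knockouts and 9, 3 and 2 reads in wild types. At these counts it did not pass the filter on low counts. Without the filter its log2 fold change was 0.17 ± 0.59 (SE, edgeR adjusted p = 0.92), with an interval of -0.99 to 1.34.

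**Figure D1:**
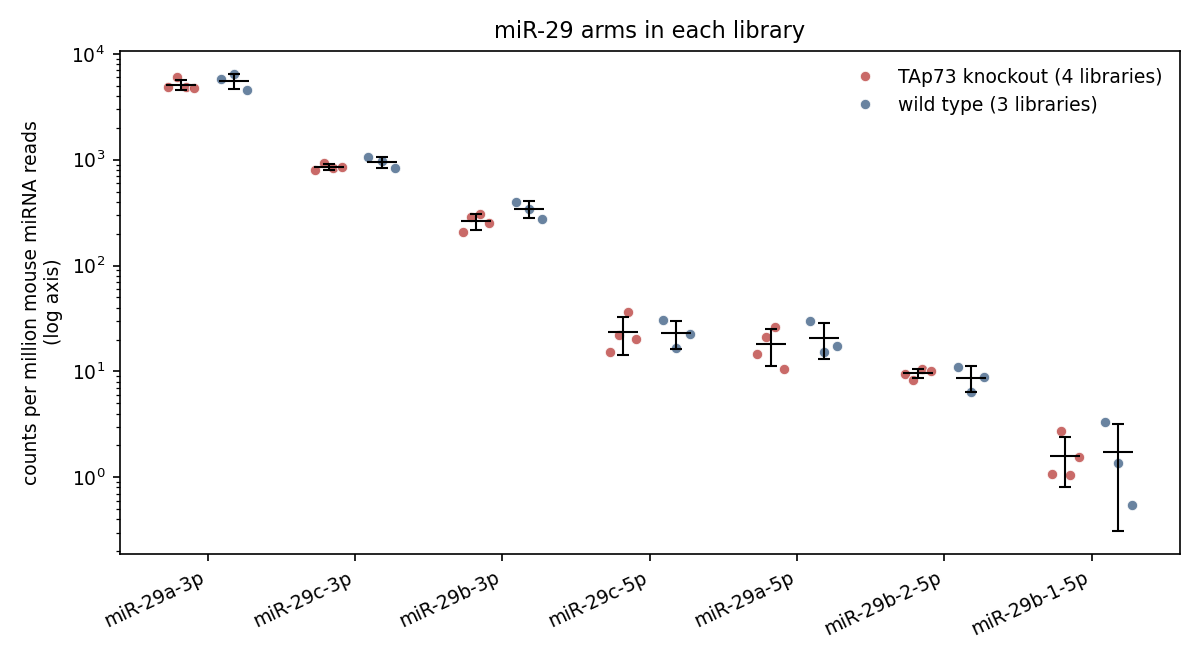
Level of each miR-29 arm in every library, in CPM of mouse miRNA reads on a log axis, with knockouts to the left of wild types. Points are libraries, the horizontal mark is the group mean and the bar 1 SD. The 3p arms lie at 206.5 CPM or above and the 5p arms at 36.6 CPM or below, and for each arm the knockout and wild type points overlap.

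The 6 tested arms included 0 that were called at an adjusted p under 0.05, against 1.12% of the 534 miRNAs tested (edgeR's quasi-likelihood test, Benjamini-Hochberg over all 534). At an unadjusted p under 0.05 the count was also 0, against 12.9% of all tested, and DESeq2 and limma-voom called 0 each, against 2.62% and 0.936% of all tested. The groups overlapped for all 6 arms, whereas they did not overlap for 11.8% of the miRNAs tested. Over the 3p arms the intervals of the fold change reached no lower than 0.606 and no higher than 1.22. Those of the 5p arms, counted from 10 to 171 reads per library, reached 0.524 and 1.68. On simulated counts built from these libraries, edgeR called 41.7% of 1.5-fold changes and 75% of 2-fold changes. The simulation changed more rows than were called here: 48 each at 1.5-fold, 2-fold and 4-fold and 46 at 8-fold, of 489 run. Benjamini-Hochberg is more lenient when many rows change, so these rates can overstate the sensitivity in these data. They cover miRNAs of all levels, and a change of 1.5-fold could go without a call.

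**Figure D2:**
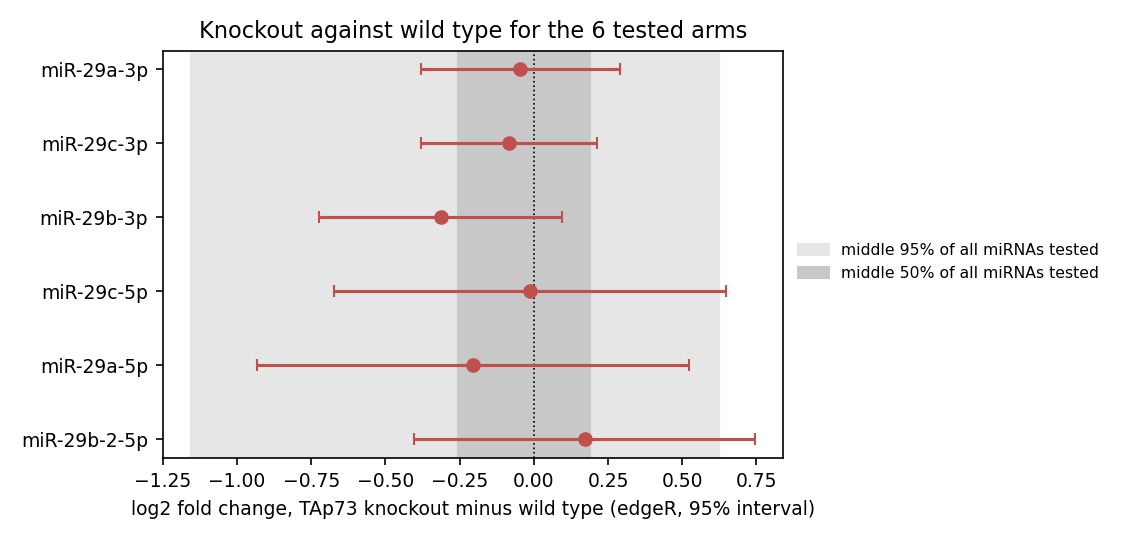
Log2 fold change, knockout minus wild type, of the 6 tested miR-29 arms with the 95% interval of the edgeR fit. The light band holds the middle 95% of all 534 miRNAs tested (-1.16 to 0.62) and the dark band the middle 50% (-0.26 to 0.19). Each interval crosses 0, and miR-29b-3p lies furthest to the left at -0.31.

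The order of the members was the same in 7 of 7 libraries: miR-29a-3p, miR-29c-3p, miR-29b-3p, miR-29c-5p, miR-29a-5p, miR-29b-2-5p and miR-29b-1-5p. These are read levels of strands of similar length, and adapter ligation favours some ends over others, so they need not be ratios of molecules. miR-29a-3p exceeded miR-29c-3p by 5.42 to 6.54 times, and miR-29c-3p exceeded miR-29b-3p by 2.62 to 3.88 times. The narrowest gap was between miR-29c-5p and miR-29a-5p, at 1.02 to 1.90 times, and their ranges overlapped between libraries. miR-29a-5p and miR-29b-2-5p were also close in knockout replicate 4, at 1.05 times, so these neighbours are not separated beyond their spread.

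The composition of the family is free of the library scaling, because both terms of a share come from the same library. miR-29a-3p supplied 82.0% ± 1.05 of the 3p reads in knockouts against 81.0% ± 1.63 in wild types (SD, n = 4 and n = 3). miR-29c-3p supplied 13.8% ± 0.61 in knockouts and 14.02% ± 1.17 in wild types. miR-29b-3p supplied 4.22% ± 0.68 in knockouts and 4.995% ± 0.55 in wild types, a difference of -0.78 ± 0.47 percentage points (SE). The groups overlapped in all 3 shares, with an exact permutation p of 0.37 for miR-29a-3p, 0.71 for miR-29c-3p and 0.17 for miR-29b-3p (two-sided, smallest possible 0.029). After Benjamini-Hochberg adjustment over the 8 composition measures compared, these exact p-values were 0.86 for miR-29a-3p, 0.91 for miR-29c-3p and 0.69 for miR-29b-3p.

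By group means, use of the 5p arm rose from miR-29a over miR-29c to miR-29b in knockouts and in wild types. Of the reads of both arms, the 5p arm took 0.351% ± 0.13 for miR-29a in knockouts and 0.379% ± 0.14 in wild types. For miR-29c it took 2.67% ± 1.05 in knockouts and 2.38% ± 0.61 in wild types. For miR-29b, where both 5p rows were set against the shared 3p row, it took 4.14% ± 0.59 in knockouts and 2.96% ± 0.69 in wild types. Over all libraries the 3p arm of miR-29a held 99.7% of the reads of its pair, and 30.9% of the 191 mouse arm pairs with at least 1000 reads were as one-sided or more.

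The 5p arm use of miR-29b was the composition measure in which the groups did not overlap. It was 4.84%, 3.73%, 3.59% and 4.41% in the 4 knockouts, against 3.47%, 2.18% and 3.24% in the 3 wild types. The lowest knockout, replicate 3, rested on 11 of 306 reads with an exact binomial 95% interval of 1.81% to 6.34%, which covers the wild type values from 2.18% to 3.47%. The difference of 1.18 ± 0.49 percentage points (SE) had an exact permutation p of 0.057 (two-sided) and 0.46 after Benjamini-Hochberg adjustment over the 8 measures. With 35 splits, a lone measure at the smallest possible p would have an adjusted value of 0.23, so the adjusted test could not pass for 1 measure by itself. Among the 191 arm pairs with at least 1000 reads, 5.24% had groups that did not overlap in 5p arm use, and in 3.14% all knockouts lay above all wild types. Each of these pairs sets a single 5p row against its own 3p row. miR-29b, whose measure joins both 5p rows, is therefore not among them. The parts of this share were miR-29b-3p, averaging 263 ± 44.4 CPM in knockouts against 342 ± 62.3 CPM in wild types, and mostly miR-29b-2-5p, averaging 9.56 ± 0.94 CPM in knockouts against 8.74 ± 2.40 CPM in wild types.

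**Figure D3:**
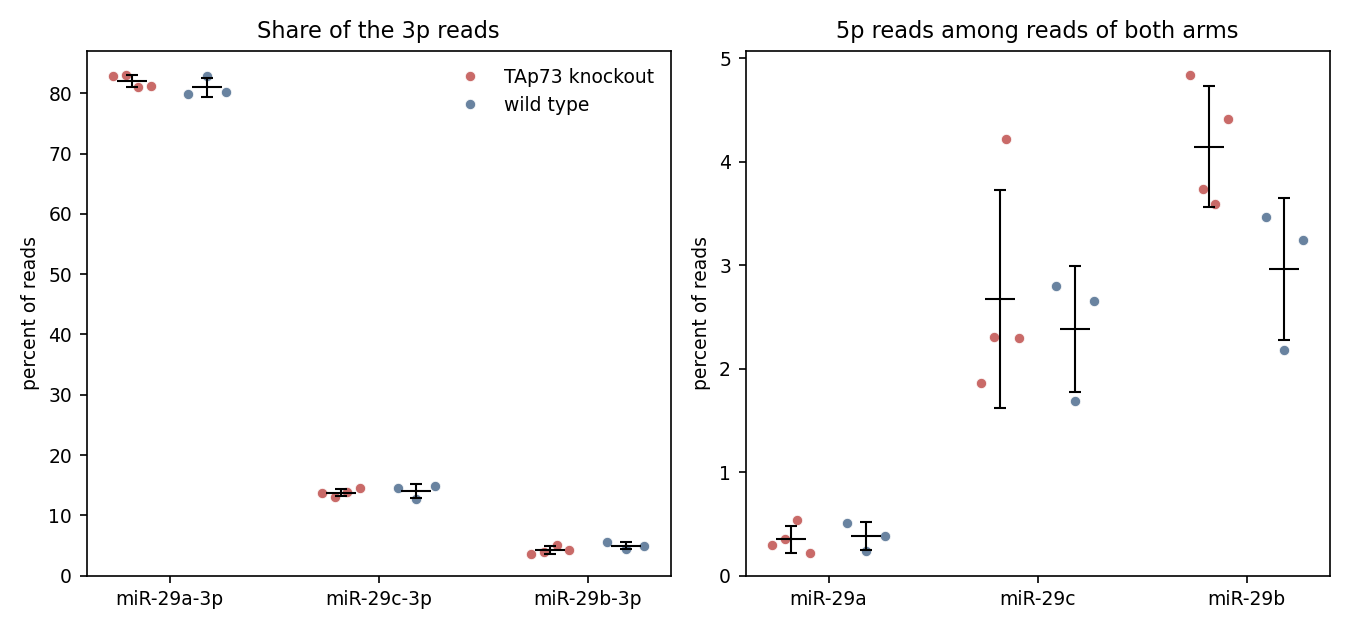
Left, percent of the miR-29 3p reads that belong to each 3p arm. Right, percent of the reads of both arms that belong to the 5p arm, for each member. Knockouts are left of wild types, points are libraries, the mark is the mean and the bar 1 SD. miR-29b 5p arm use was 3.59% to 4.84% in knockouts and 2.18% to 3.47% in wild types, while the groups overlap in the other 5 measures.

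The 5p rows can be split by cluster. miR-29b-2-5p supplied 85.6% ± 7.12 of the miR-29b 5p reads in knockouts and 84.5% ± 8.79 in wild types (exact permutation p = 0.91, two-sided). The chromosome 1 cluster, miR-29b-2 with miR-29c, supplied 63.0% ± 6.31 of all 5p reads in knockouts and 59.1% ± 4.03 in wild types (exact permutation p = 0.43). Because 5p arm use differs between the hairpins, this share is not the share of the cluster's output, and among the 3p reads miR-29c-3p supplied 12.7% to 14.8%. The 5p total rests on 71 reads in knockout replicate 3 and 88 reads in wild type replicate 2, where the exact 95% interval of the chromosome 1 share was 51.1% to 74.5% and 47.0% to 68.4%.

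Across the 7 libraries, miR-29a-3p and miR-29c-3p followed each other more closely than either followed the 5p arm of its own hairpin, as the plot of profiles shows. As a description over libraries that share their depth and their total, and without a test, Pearson's r of log2(CPM + 1) was 0.84 between miR-29a-3p and miR-29c-3p, which come from different chromosomes (Spearman's rho 0.61). Between miR-29b-3p and miR-29c-3p it was also 0.84 (rho 0.75), and between miR-29a-3p and miR-29b-3p 0.60 (rho 0.68). It was 0.27 between miR-29a-3p and miR-29a-5p, which are cut from the same hairpin (rho 0.36), and 0.19 between miR-29c-3p and miR-29c-5p (rho 0.14). Between the 5p arms miR-29a-5p and miR-29c-5p it was 0.78 (rho 0.82). miR-29a-5p was counted from 25 to 162 reads per library and miR-29c-5p from 35 to 171, and counting error can lower an r. miR-29a-3p and miR-29c-3p differ by a single base, and reads assigned to the wrong row could raise theirs. Neither effect was tested.

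**Figure D4:**
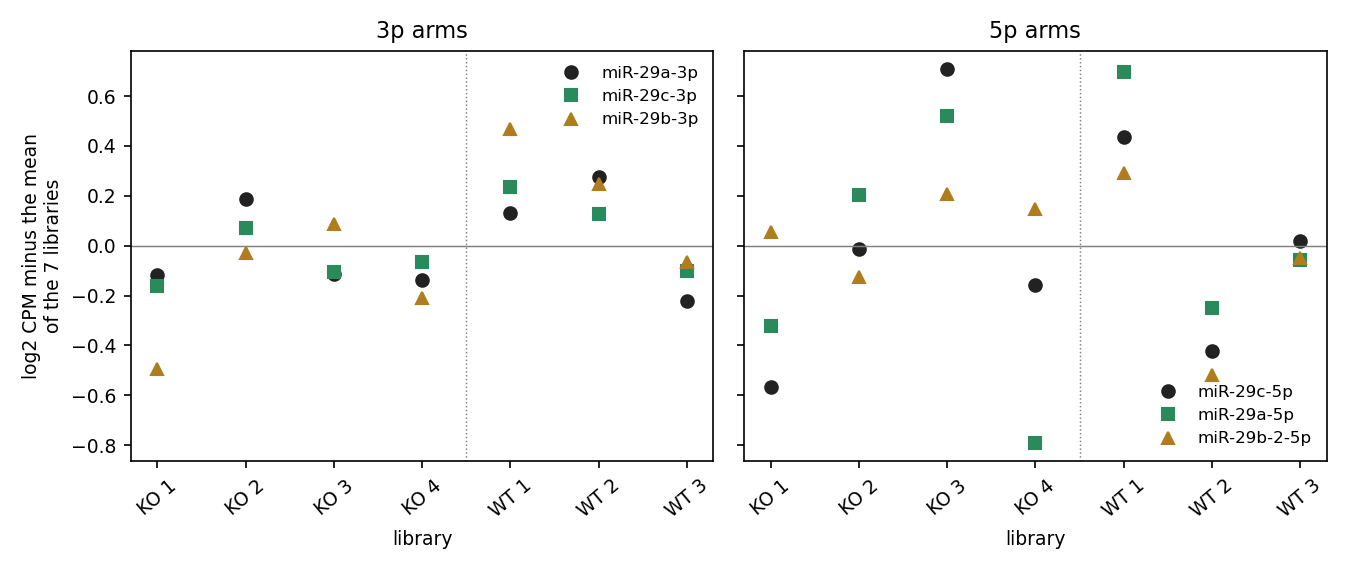
Log2 CPM of each arm minus its mean over the 7 libraries, knockouts left of the dotted line and wild types right of it, 3p arms in the left panel and 5p arms in the right. miR-29b-1-5p, with 1 to 21 reads, is not drawn. The 3p arms are all above 0 in wild type replicates 1 and 2 and below 0 in wild type replicate 3, while the 5p arms are high in knockout replicate 3 and wild type replicate 1.

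The miRNAs whose profile was most like miR-29a-3p, out of 401 tested miRNAs with a mean of at least 10 CPM, were miR-218-5p (r = 0.92), miR-101a-5p (0.88), miR-708-5p (0.87), miR-411-5p (0.84) and miR-337-3p (0.80). Those most like miR-29c-3p were miR-337-3p (r = 0.94), miR-17-5p (0.89), miR-218-5p (0.87), miR-30e-5p (0.86) and let-7i-3p (0.85). These are the highest of many values over 7 libraries and carry no test. Named for both arms were miR-337-3p, averaging 12.4 ± 0.90 CPM in knockouts against 16.3 ± 3.78 CPM in wild types, and miR-218-5p, a miRNA of motor and other neurons, averaging 1518 ± 158 CPM in knockouts against 1674 ± 350 CPM in wild types.

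Other miRNAs that rise as the brain matures were read beside miR-29. A list of 13 was made of the let-7 5p arms with miR-98-5p and of the neuronal miR-124-3p, miR-138-5p, miR-132-3p and miR-128-3p. Of these, 0 were called by edgeR in either direction, against 1.12% of all tested. An unadjusted edgeR p under 0.05 was found for 10, against 12.9% of all tested. DESeq2 called 4 of them, against 2.62% of all tested. All 13 log2 fold changes were positive, the lowest being miR-138-5p at 0.03, with a median of 0.41. Over all miRNAs tested the median was -0.02 and 47.2% were positive. With library totals alone, 12 of 13 were positive. The list was chosen with earlier results of these data known, so these counts are a description and not a test. The let-7 arms and miR-98-5p also belong to 1 family, so the 13 are not independent of each other. The smallest p-values belonged to let-7f-5p at 0.50 ± 0.12 (SE, edgeR adjusted p = 0.10), let-7c-5p at 0.47 ± 0.12 (adjusted p = 0.10) and let-7a-5p at 0.46 ± 0.12 (adjusted p = 0.13). The summed level of 7 neuronal marker miRNAs was 34091 to 38499 CPM in knockouts and 20392 to 33996 CPM in wild types, and its part in these values was not tested. The list median of these 7 was 0.03. The largest part of the sum was miR-128-3p, averaging 18583 ± 687 CPM in knockouts against 12044 ± 4112 CPM in wild types (SD, edgeR adjusted p = 0.15). miR-129-2-3p was at -0.46 (edgeR adjusted p = 0.35). Of the 7, 4 (miR-138-5p, miR-124-3p, miR-132-3p and miR-128-3p) are also in the list of 13. miR-29a-3p, miR-29b-3p and miR-29c-3p, which also rise as the brain matures, were at -0.04, -0.31 and -0.08 in the same fit. The list was not matched to miR-29 by the time of that rise, and the difference between them was not tested.

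Of 10 miRNAs high in dividing progenitors, from the miR-17 clusters and miR-92b, edgeR called 0, against 1.12% of all tested, and the median was -0.04. Their smallest p-values belonged to miR-92b-3p at 0.45 ± 0.18 (SE, edgeR adjusted p = 0.38), miR-17-5p at -0.36 ± 0.22 (adjusted p = 0.54) and miR-92a-3p at 0.28 ± 0.14 (adjusted p = 0.42). Of 7 tested miRNAs linked to fibrosis, a process in which miR-29 typically falls, edgeR called 0, against 1.12% of all tested, and the median was -0.02. This list was not sorted by whether a member rises or falls in fibrosis, so its median does not describe a direction. Their smallest p-values were those of miR-133a-3p at -0.85 ± 0.33 (SE, adjusted p = 0.38), miR-30c-5p at 0.13 ± 0.13 (adjusted p = 0.71) and miR-200b-3p at 0.15 ± 0.18 (adjusted p = 0.73). In each of these lists DESeq2 called 0, against 2.62% of all tested, and 1 member had an unadjusted edgeR p under 0.05, beside 12.9% of all tested. With so few called among all tested, a list this short would seldom hold a call, so the 0 counts say little about its members.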

How the data were processed

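Small RNA libraries were made from total RNA, isolated with phenol and chloroform, with the Illumina TruSeq small RNA kit, per the labels' protocols. Per library the authors deposited 1 table of raw read counts per named small RNA. Without roles, mm10, DESeq2 and bcl2fastq (2.17.1.14) are named per the submitters' processing notes. Aligner, counter and mismatch rules are not stated there or in the labels. The 5 closing lines for unassigned reads hold 0 reads and were left out, so depth means assigned reads. The kit has no molecular identifiers, and binomial intervals cover counting error only. The 70 miR-29 rows of other species hold 0 reads.

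Groups came from the genotype label, and replicates are numbered in accession order. The labels give no batch. CPM is counts per 1000000 reads of all mouse miRNA rows. The test on those rows was that of edgeR 4.0.16, run under R 4.3.3 (TMM scaling, filterByExpr with minimum count 10 and minimum total 15, robust quasi-likelihood test, Benjamini-Hochberg), checked on simulated counts. Shares and arm use were compared by an exact permutation test over 35 splits. Named are all 7 arms, the 5 closest profiles to miR-29a-3p and to miR-29c-3p, and the 3 smallest p-values of each of the 3 lists. The miR-29 arms and all lists were chosen with earlier results of these data known. Alternatives were DESeq2 1.42.0, limma-voom (limma 3.58.1), 3 other scalings, 2 other filters, no robust estimation, rows of all species summed, a logit scale with 0.5 added to each count, leaving out each library in turn, and leaving out knockout replicate 3 with wild type replicate 2.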

Additional observations from a re-analysis of the deposited data

Results flagged for a closer look

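Among the 4 knockout libraries, 16 values (the 7 arms, the family sum and the 8 composition measures) were examined for a library far from the others, which chance alone gives in about 1 in 20 groups. For miR-29a-3p, knockout replicate 2 stood at 5997 CPM while the remaining knockouts lay between 4788 and 4873 CPM. On the log2 scale its distance to the next library, divided by the range of the group, was 0.922. The family sum, which is mostly miR-29a-3p, stood out in the same library at 7276 CPM, with 5900 to 6089 CPM elsewhere among knockouts, and the same ratio was 0.850. Both values of knockout replicate 2 lay within the wild type range, and without this library the log2 fold change of miR-29a-3p was -0.14 (edgeR adjusted p = 0.80). With 3 libraries, the wild types were not examined.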

How the results depend on the processing

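In each of the 17 alternative fits 0 miR-29 arms were called, and the edgeR, DESeq2 or limma adjusted p-values ran from 0.38 to 0.996 over 102 refitted fold changes, of which 94 kept their direction. With knockout replicate 3 and wild type replicate 2 left out together, miR-29a-3p moved to 0.12, 5p arm use of miR-29c to -0.58 points and the miR-29b-2-5p share to -1.64 points. miR-29c-5p, at -0.01 in the report, was at 0.016 with DESeq2 and at 0.018 with no filter. Leaving out each library in turn gave log2 fold changes of -0.20 to 0.10 for miR-29a-3p, -0.36 to 0.13 for miR-29a-5p and -0.22 to 0.21 for miR-29c-5p, with a change of sign for miR-29a-3p when wild type replicate 2 was left out, for miR-29a-5p when it was wild type replicate 1, and for miR-29c-5p when it was wild type replicate 1 or knockout replicate 1 or 4. Over the same omissions 5p arm use differed by -0.098 to 0.038 points for miR-29a and -0.23 to 0.56 for miR-29c, the miR-29b-2-5p share by -2.60 to 6.00 and the miR-29c-3p share by -0.94 to 0.12. Values that kept their sign also moved: miR-29b-3p was at -0.47 to -0.18, miR-29c-3p at -0.20 to -0.0067 and miR-29b-2-5p at 0.030 to 0.36 on the log2 scale, and the miR-29a-3p share differed by 0.47 to 1.98 points, the miR-29b-3p share by -1.09 to -0.49 and the chromosome 1 share by 1.137 to 6.18. The cause of these changes was not tested. The 5p arm use of miR-29b stayed higher in knockouts, by 0.79 to 1.43 points over these omissions, and on the logit scale had an exact permutation p of 0.029 (two-sided, the smallest possible, 0.23 after adjustment over the 8 measures).

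Over all mouse miRNAs the number called was 6, and 14 with DESeq2, 19 with no filter, 19 with knockout replicate 3 and wild type replicate 2 left out, and 3 to 14 without single libraries (lowest with wild type replicate 1 left out, highest with wild type replicate 2). Of the 13 maturation miRNAs, 0 were called by edgeR in the report. With no filter edgeR called 4 higher in knockouts, beside 19 of all 1284 tested. With wild type replicate 2 left out it called 2 higher, beside 14 of all 547 tested. With knockout replicate 3 left out as well it also called 2 higher, beside 19 of all 538 tested. Library totals alone moved the median of all miRNAs to -0.10, against -0.02, and the share of positive fold changes to 38.4%, against 47.2%, and with them miR-29b-3p was at -0.38. Set against all assigned reads, the family averaged 6225 CPM over knockouts, against 6828 CPM over wild types. Permutation tests without a library could not pass, since 15 to 20 splits remain. Precision of the 5p arms is limited by 1 to 171 reads per library. No paired analysis was possible because the labels give no replicate numbers that the groups share.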
